A study of Homo sapiens with 9 samples.

Results

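AP-1 is a dimeric transcription factor built from FOS family and JUN family proteins. Described here are 10 genes, 6 of the FOS and JUN families and 4 others of the immediate early response. The members were FOS, FOSB, FOSL2, JUN, JUNB, JUND, EGR1, ATF3, IER2 and DUSP1, chosen by their symbols in the count table. All 10 were present among the 30017 genes listed, and all 10 passed the filter on low counts together with 12712 genes in all. The cells were MOLM13, an established human acute myeloid leukemia line, transduced with pLKO-GFP lentivirus that had been packaged in 293T cells. The 3 groups carried a control hairpin (sh-Control), a hairpin against DDX41 with a strong effect (shDDX41 #1) or a hairpin against DDX41 with a weaker effect (shDDX41 #2). Each group had 3 libraries, lettered A, B and D as in the labels, and cells were sorted on day 4 after transduction. Every library came from the same line, and all groups carried the vector and its GFP marker, so no group represents untransduced cells. The labels do not say whether the letters stand for separate transductions, so p-values measure the spread between these libraries, which may be technical. In bulk RNA, fewer cells of a type and less RNA per cell cannot be told apart.

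Immediate early genes are transcribed within minutes of a stimulus, without new protein synthesis. Mitogen-activated protein kinases phosphorylate factors that already sit at their promoters, such as the SRF and ELK proteins at CArG boxes and CREB or ATF proteins at cyclic AMP response elements. Most of their transcripts are short-lived, so that levels fall quickly once the stimulus ends. FOS proteins cannot pair with each other and need a JUN partner, whereas JUN proteins can also pair among themselves. In myeloid cells AP-1 takes part in monocytic differentiation and in the response to stress and to inflammatory signals.

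DDX41, a DEAD-box RNA helicase and the target of both hairpins, was read first as a check of the labels. Levels are given as CPM, a gene's share of its library's counts scaled to 1000000 counts, with library totals rescaled by the TMM method of edgeR. DDX41 stood at 117, 115 and 113 CPM in sh-Control A, B and D, at 12.2, 12.9 and 9.95 CPM in shDDX41 #1, and at 38.9, 39.9 and 42.5 CPM in shDDX41 #2. The 3 groups were fully apart in the direction of their labels, and the log2 fold change against sh-Control was -3.29 for shDDX41 #1 and -1.51 for shDDX41 #2. Libraries held 16385238 to 20510032 counts, and the TMM factors ran from 0.963 to 1.02. All 12 myeloid marker genes were measured in every group, with a summed level of 2500 to 2690 CPM in sh-Control, 2590 to 2730 CPM in shDDX41 #1 and 3420 to 3460 CPM in shDDX41 #2. Of 10 epithelial and kidney markers 2 (KRT8 and KRT18) passed the filter, the list summed to 15.0 to 19.5 CPM over all groups, and CDH1, KRT19 and CDH16 were at 0 in every library. Of 6 lymphoid markers 2 passed, with a sum of 1.27 to 3.27 CPM and MS4A1 at 0 in every library. None of 6 erythroid markers passed, and HBB, HBA1, HBA2 and ALAS2 were at 0. The higher myeloid sum under shDDX41 #2 was not a rise of all 12 markers. LYZ, the most abundant of them, had a log2 fold change of 0.96, MPO of 0.59 and TYROBP of 0.53. FCER1G fell (-0.91), and the others lay between -0.25 and 0.06. The part of the higher sum in the results below was not tested.

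The promoters of the 10 genes are shown first, because the genes share short elements there that the choice of symbols did not use. The 250 bases before each RefSeq start were searched on both strands (GRCh38.p14, 10 of 10 genes matched). The 5-base core of the cyclic AMP response element, TGACG, was found in 9 of the 10 promoters, and ATF3 was the exception. The same letters were present in 21.2% of the 35116 promoters in the RefSeq table. That core contains a CpG. The promoters of 9 members had a GC content of 62.0 to 74.8%, above the median of 58.0% over all promoters. That of ATF3 had 49.2%. Any other start of a member was not searched. The missing core and the GC content of ATF3 therefore hold only for the window before the RefSeq start used. Distances below are counted from the RefSeq start, which can differ from the start of the GENCODE v29 gene whose position is given with each member. The RefSeq start lay 54 bases inside the GENCODE gene for FOS, 56 for FOSL2, 73 for ATF3 and 280 for JUN, and within 11 bases of its start for the other members. The core began 64 bases before the RefSeq start in FOS, 60 in FOSB and 66 in FOSL2, and FOSL2 held a further core at 201 bases. Counted from the GENCODE starts, the cores shown began 10, 59 and 10 bases upstream, so that their distance depends on the annotation. The windows below hold 30 bases each, 5′ to 3′ on the strand of the gene, with the element in capitals, and lie at chr14:75278751-75278780 (+), chr19:45467923-45467952 (+) and chr2:28392779-28392808 (+). The last 7 bases of the FOS and FOSL2 windows fall inside the GENCODE gene.
FOS: gtggttgagcccgTGACGtttacactcatt
FOSB: agcaaggggcgggTGACGtaagcagggggg
FOSL2: tggagtctggggtTGACGtgagtgaatcca

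JUN and ATF3 held the 8-base variant TGACATCA, which is known as a site of JUN and ATF2 dimers and was present in 2.37% of promoters. It began 67 bases before the RefSeq start in JUN and 123 bases before it in ATF3. By GENCODE the JUN site lies inside the single exon, 213 bases past the start of the gene, and the ATF3 site lies 50 bases upstream. JUN also held the core, 123 bases before the RefSeq start and likewise inside the GENCODE exon. The windows of 30 bases lie at chr1:58784096-58784125 (-) and chr1:212565273-212565302 (+).
JUN: aggccttggggTGACATCAtgggctatttt
ATF3: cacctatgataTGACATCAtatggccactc

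The full palindrome TGACGTCA, which contains the core on both strands, was found in JUND and DUSP1 and in 1.65% of promoters. The palindrome began 200 bases upstream in JUND and 125 in DUSP1. JUND held a further core at 86 bases, and DUSP1 held further cores at 172 and 111 bases, of which the latter is also in capitals. The windows lie at chr19:18281804-18281833 (-) and chr5:172771295-172771324 (-).
JUND: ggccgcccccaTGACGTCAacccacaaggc
DUSP1: cgggTGACGTCAccgcccCGTCAcgtgatc

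Sequence more than 250 bases before the RefSeq start was not searched, so a CArG box further upstream would not be seen. EGR1 was the only member with a CArG box in the window, the element bound by SRF, which 1.16% of promoters held. It had 2 of them, starting 105 and 83 bases upstream, followed by the core on the opposite strand at 66 bases. A further core began 135 bases upstream, outside the stretch shown. This stretch of 52 bases lies at chr5:138465368-138465419 (+).
EGR1: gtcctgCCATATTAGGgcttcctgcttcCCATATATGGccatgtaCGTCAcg

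Neither the AP-1 site TGACTCA (4.2% of promoters) nor the EGR1 site GCGGGGGCG (4.72%) was present in the window of any member. A match is a string of letters and not an observed binding site. JUNB and IER2 held only the TGACG core, starting 137 and 140 bases upstream.

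The members differed widely in abundance. Per kilobase of merged GENCODE v29 exon, JUND was the most abundant in sh-Control at 362 ± 62.0 CPM per kb (SD, n = 3). JUNB followed at 56.6 ± 10.2 and IER2 at 24.7 ± 5.2 CPM per kb. FOSB (15.4 ± 8.89), FOSL2 (15.2 ± 1.32) and FOS (12.8 ± 0.519) came next, and the spread of FOSB reached the levels of IER2, FOSL2 and FOS. JUN (6.57 ± 3.30), ATF3 (5.16 ± 1.41), EGR1 (3.92 ± 1.57) and DUSP1 (2.38 ± 0.659) were lowest, and each of these overlapped its neighbour in the order within 1 SD. Under shDDX41 #1 JUN came last at 4.85 ± 0.229 CPM per kb, within 1 SD of DUSP1 (4.94 ± 0.514). FOS (28.6 ± 1.60) and FOSB (28.9 ± 6.12) reached the level of IER2 (28.3 ± 0.681) in that group. Under shDDX41 #2, FOSL2 (22.8 ± 0.553) lay above FOS (16.7 ± 1.70) and FOSB (14.1 ± 0.559).

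Against sh-Control, shDDX41 #1 raised 5 of the 10 members and lowered none. FOS, DUSP1, FOSB, EGR1 and ATF3 rose, by log2 fold changes of 0.49 to 1.16. Of all 12712 genes 47.8% were called in this comparison, 23.7% higher and 24.1% lower. These were 3010 genes higher and 3068 lower, and 3849 higher and 2453 lower with upper quartile factors, under which FOSL2 was also called (0.27). The median log2 fold change was 0.34 over the members and 0.01 over all genes tested. Libraries did not overlap between the groups for 3 members, FOS, EGR1 and DUSP1, and for 53.1% of all genes. A call is an adjusted p under 0.05 in edgeR's two-sided quasi-likelihood test with Benjamini-Hochberg adjustment over all genes tested. The count of members rests on the control libraries. It was 9 without sh-Control A and 3 without sh-Control B, fits for which the share of all genes called is not given here.

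Against the same controls, shDDX41 #2 raised FOS and FOSL2 and lowered JUN and JUNB. That made 4 of 10 members called, where 25% of all genes were called, 11.6% higher and 13.4% lower. The members' median log2 fold change was -0.17, beside -0.01 over all genes. The groups did not overlap for 6 members (FOS, FOSL2, JUN, JUNB, EGR1 and DUSP1) and for 43.8% of all genes.

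Between the hairpins the members stood further apart. Of the 10 members 8 were called higher under shDDX41 #1 than under shDDX41 #2, and FOSL2 was called lower. Of all genes 48.8% were called, 24.6% higher and 24.2% lower. The members' median log2 difference was 0.58, against 0.01 over all genes. The libraries of the groups were apart for all 10 members and for 57.7% of all genes. This comparison uses no sh-Control library in its difference, although the controls enter the estimate of the spread. The comparisons of each hairpin with sh-Control share their 3 control libraries.

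**Figure D1:**
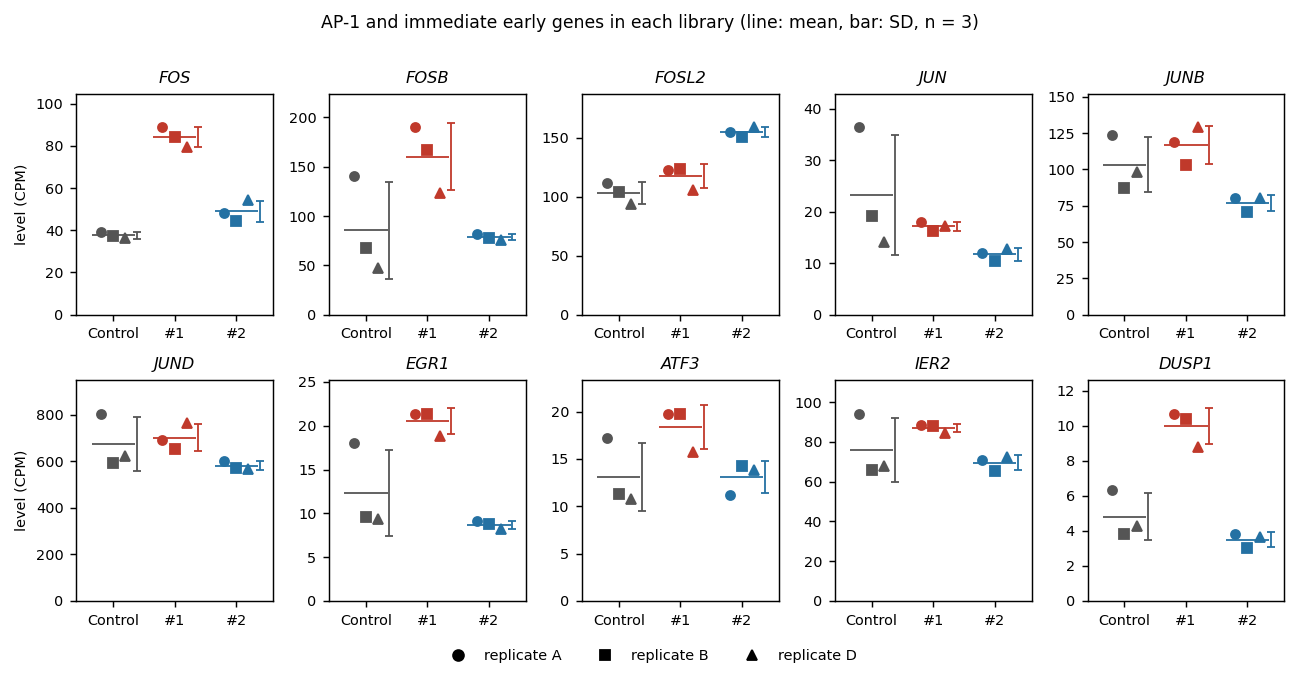
Level of each member in every library (CPM, linear axis from 0), with symbols for the replicate letters, a line for the group mean and a bar for its SD (n = 3). FOS lies higher in all 3 shDDX41 #1 libraries (79.4 to 88.8 CPM) than in any other, and sh-Control A is the highest control in all 10 panels.

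**Figure D2:**
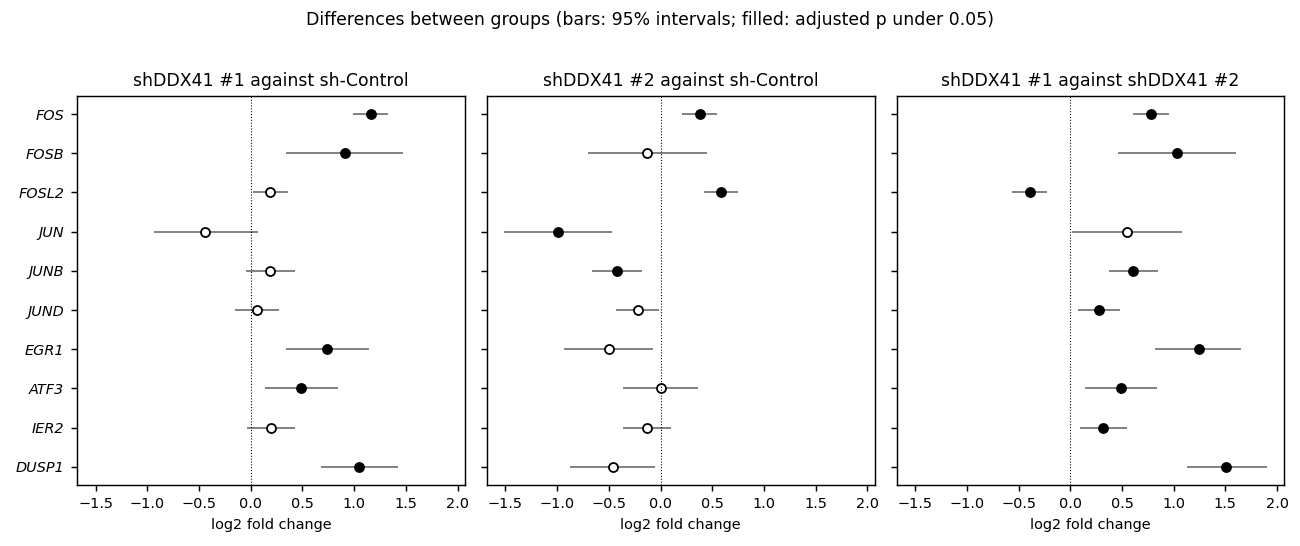
Log2 fold change of each member in the 3 comparisons (horizontal axis) with 95% intervals as bars and filled points for an adjusted p under 0.05. The 5 filled points for shDDX41 #1 against sh-Control lie right of 0, and between the hairpins FOSL2 is the only member left of 0.

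FOS, the prototype of the family and one of the most rapidly induced human genes (chr14:75278774-75282230), gave the clearest difference of the group. Its level was 39.3, 37.2 and 36.3 CPM in sh-Control A, B and D, 88.8, 84.2 and 79.4 CPM in shDDX41 #1, and 48.4, 44.4 and 54.4 CPM in shDDX41 #2. The 3 groups did not overlap, and the order was sh-Control, shDDX41 #2, shDDX41 #1. The fold over sh-Control was 2.24 for shDDX41 #1 (log2 fold change 1.16, SE 0.0802, adjusted p = 3.7e-08 with edgeR) and 1.30 for shDDX41 #2 (0.38, SE 0.0811, adjusted p = 0.0034 with edgeR). The hairpins differed by 0.78 on the log2 scale (adjusted p = 1.5e-06, edgeR). FOS was called in all 3 comparisons in each of the 9 fits that left out 1 library.

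FOSB, a FOS paralog with a similar activation domain, lies at chr19:45467995-45475179. It stood at 141, 67.3 and 47.8 CPM in sh-Control A, B and D, at 190, 167 and 123 CPM in shDDX41 #1, and at 81.8, 77.4 and 75.8 CPM in shDDX41 #2. The control libraries spread 2.96-fold, and sh-Control A lay above the lowest shDDX41 #1 library. FOSB rose under shDDX41 #1 by a log2 fold change of 0.91 (SE 0.266, edgeR adjusted p = 0.011). Under shDDX41 #2 the estimate was -0.13 with a 95% interval of -0.70 to 0.45. The call under shDDX41 #1 was lost without sh-Control B (0.76) and the estimate was 1.48 without sh-Control A. With a robust prior in edgeR, FOSB was not called under shDDX41 #1 or between the hairpins (adjusted p = 0.109 and 0.076).

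FOSL2 (FRA2), a FOS family member without the strong activation domain of FOS that is expressed later and for longer (chr2:28392802-28417312), went its own way. It measured 112, 104 and 94.0 CPM in sh-Control, 123, 124 and 106 CPM in shDDX41 #1, and 155, 151 and 159 CPM in shDDX41 #2. All 3 shDDX41 #2 libraries lay above every other library. FOSL2 rose 1.5-fold under shDDX41 #2 (log2 fold change 0.58, SE 0.0779, adjusted p = 8.7e-05 with edgeR). Under shDDX41 #1 the value was 0.19 (95% interval 0.02 to 0.36, edgeR adjusted p = 0.057), and the hairpins differed by -0.39 (SE 0.0777, adjusted p = 0.0007, edgeR). FOSL2 was thus the only member that was higher under the weaker hairpin.

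JUN, the partner of FOS in the classical AP-1 dimer and a substrate of JUN N-terminal kinases (chr1:58780788-58784327), did not rise with FOS. It stood at 36.4, 19.2 and 14.2 CPM in sh-Control A, B and D, at 18.0, 16.3 and 17.2 CPM in shDDX41 #1, and at 12.0, 10.4 and 12.8 CPM in shDDX41 #2. Every shDDX41 #2 library lay below every other library, while the shDDX41 #1 libraries fell within the range of the controls. JUN fell under shDDX41 #2 by a log2 fold change of -0.99 (SE 0.243, edgeR adjusted p = 0.0083). Without sh-Control A that change was -0.51, still called. Under shDDX41 #1 the value was -0.44 (95% interval -0.94 to 0.07), and it was 0.04 without sh-Control A and -0.70, past the threshold, without sh-Control D. Between the hairpins JUN differed by 0.55 (SE 0.249) and was not called (edgeR adjusted p = 0.079), although the libraries did not overlap.

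JUNB, a weaker activator that can oppose JUN and is abundant in myeloid cells, lies at chr19:12791496-12793315. It measured 124, 87.2 and 98.1 CPM in sh-Control A, B and D, 119, 103 and 129 CPM in shDDX41 #1, and 80.1, 70.5 and 80.4 CPM in shDDX41 #2. The shDDX41 #2 libraries were the 3 lowest of the 9. JUNB fell under shDDX41 #2 (log2 fold change -0.42, SE 0.113, edgeR adjusted p = 0.014), and the call was lost without sh-Control A (-0.27) and without shDDX41 #2 B (-0.36). Its value under shDDX41 #1 was 0.19 (95% interval -0.05 to 0.43). The hairpins differed by 0.61 (SE 0.113, adjusted p = 0.00044, edgeR), a call that held in all 9 fits that left out 1 library.

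JUND, which is expressed in resting cells and is induced less than its paralogs (chr19:18279760-18281622), had the smallest estimate of the members for shDDX41 #1 against sh-Control and between the hairpins, but not for shDDX41 #2. Levels were 805, 591 and 624 CPM in sh-Control A, B and D, 690, 652 and 763 CPM in shDDX41 #1, and 602, 572 and 566 CPM in shDDX41 #2. All 3 shDDX41 #2 libraries lay below every shDDX41 #1 library and overlapped the lower controls. JUND was not called against sh-Control, with 0.06 (95% interval -0.15 to 0.27) for shDDX41 #1 and -0.22 (-0.43 to -0.01) for shDDX41 #2. It was higher under shDDX41 #1 than under shDDX41 #2 by 0.28 (SE 0.0983, edgeR adjusted p = 0.031). This last call held in 4 of the 9 fits that left out 1 library, and was lost without shDDX41 #1 A or D and without each shDDX41 #2 library (0.21 to 0.30 in those fits).

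EGR1, a zinc finger activator induced through SRF and ELK proteins that also marks monocytic differentiation (chr5:138465490-138469315), separated the hairpins widely. Its levels were 18.0, 9.58 and 9.32 CPM in sh-Control A, B and D, 21.3, 21.4 and 18.8 CPM in shDDX41 #1, and 9.08, 8.78 and 8.18 CPM in shDDX41 #2. The lowest shDDX41 #1 library lay just above sh-Control A, and the shDDX41 #2 libraries lay just below sh-Control B and D. EGR1 rose 1.67-fold under shDDX41 #1 (log2 fold change 0.74, SE 0.188, edgeR adjusted p = 0.0047), and 1.11 was estimated without sh-Control A. Under shDDX41 #2 the value was -0.50 (95% interval -0.93 to -0.07, edgeR adjusted p = 0.081), and -0.12 once sh-Control A was left out. Between the hairpins the difference was 1.24 (SE 0.195, adjusted p = 0.0001, edgeR).

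DUSP1, a nuclear phosphatase that inactivates p38, JNK and ERK kinases and so closes the loop on the genes above, lies at chr5:172768090-172771195. It was the least abundant member, with 60 to 178 counts per library. Levels were 6.33, 3.84 and 4.27 CPM in sh-Control A, B and D, 10.7, 10.4 and 8.80 CPM in shDDX41 #1, and 3.84, 3.02 and 3.64 CPM in shDDX41 #2. The shDDX41 #1 libraries were the 3 highest of the 9. DUSP1 rose 2.07-fold under shDDX41 #1 (log2 fold change 1.05, SE 0.175, edgeR adjusted p = 0.00018), and under shDDX41 #2 the value was -0.46 (95% interval -0.88 to -0.05, edgeR adjusted p = 0.095). The difference between the hairpins, 1.51 (SE 0.182, adjusted p = 8.7e-06 with edgeR), was the largest among the 10 members. Without sh-Control A the changes were 1.30 and -0.22. sh-Control B and shDDX41 #2 A both stood at 3.84 CPM to the digits given.

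ATF3, a stress-induced bZIP protein that represses as a homodimer and activates with JUN partners (chr1:212565334-212620777), rose modestly. It stood at 17.2, 11.3 and 10.8 CPM in sh-Control A, B and D, at 19.7, 19.8 and 15.7 CPM in shDDX41 #1, and at 11.2, 14.3 and 13.8 CPM in shDDX41 #2. Only sh-Control A reached into the range of shDDX41 #1. ATF3 rose by 0.49 under shDDX41 #1 (SE 0.164, edgeR adjusted p = 0.023), and the same difference of 0.49 separated the hairpins (edgeR adjusted p = 0.022). Under shDDX41 #2 the value was 0.00 (95% interval -0.36 to 0.36). The call under shDDX41 #1 held in 5 of the 9 fits that left out 1 library. It was lost without sh-Control B (0.40) or D (0.36) and without shDDX41 #1 A or B (0.44 in each). Between the hairpins it held in 6 of 9, and was lost without shDDX41 #1 A or B (0.43 in each) or shDDX41 #2 A (0.39).

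IER2, a nuclear protein of the immediate early response with less well described functions (chr19:13150415-13154908), changed little. It measured 94.3, 65.7 and 67.7 CPM in sh-Control A, B and D, 88.4, 87.8 and 84.5 CPM in shDDX41 #1, and 70.9, 65.2 and 72.3 CPM in shDDX41 #2. The shDDX41 #1 libraries lay together between sh-Control A and the other controls. Neither hairpin was called against sh-Control, with 0.20 (95% interval -0.04 to 0.43) and -0.13 (-0.36 to 0.10). The hairpins differed by 0.32 (SE 0.108, edgeR adjusted p = 0.022), which was not called without shDDX41 #1 A or B or without shDDX41 #2 B (0.28 to 0.31 in those fits). The antisense gene AC011446.2 overlaps 756 exon bases of IER2 (24.6%), and how the counting treated strand is not given in the sources used here, so reads of both genes cannot be told apart.

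The control libraries were not alike for these genes. sh-Control A was the highest control for all 10 members, while it was the highest control for 32.6% of all 12712 genes. Its log2 CPM exceeded the group mean by 0.42 on average over the members, against -0.17 for sh-Control B and -0.25 for sh-Control D. The members' median range over the sh-Control libraries was 0.59 on the log2 scale, beside 0.23 over all genes. In shDDX41 #1 (0.23 beside 0.26) and in shDDX41 #2 (0.17 beside 0.15) the members' range was near that of all genes.

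The spread was unequal among the members. FOSB had the widest range in sh-Control, 1.56 on the log2 scale, larger than that of 99.0% of all genes, followed by JUN (1.36, 98.3%) and EGR1 (0.94, 95.3%). FOS had a range of 0.11, larger than that of 18.6% of all genes. FOS thus stayed level in the library in which FOSB, JUN and EGR1 were high. Across the 9 libraries, deviations from the group mean correlated with r = 0.94 between FOSB and EGR1, 0.94 between IER2 and DUSP1 and 0.92 between JUNB and JUND, but with r = 0.45 between FOS and FOSB and 0.10 between FOS and JUND. These values are descriptions over 9 libraries that share sh-Control A as their most distant point.

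**Figure D3:**
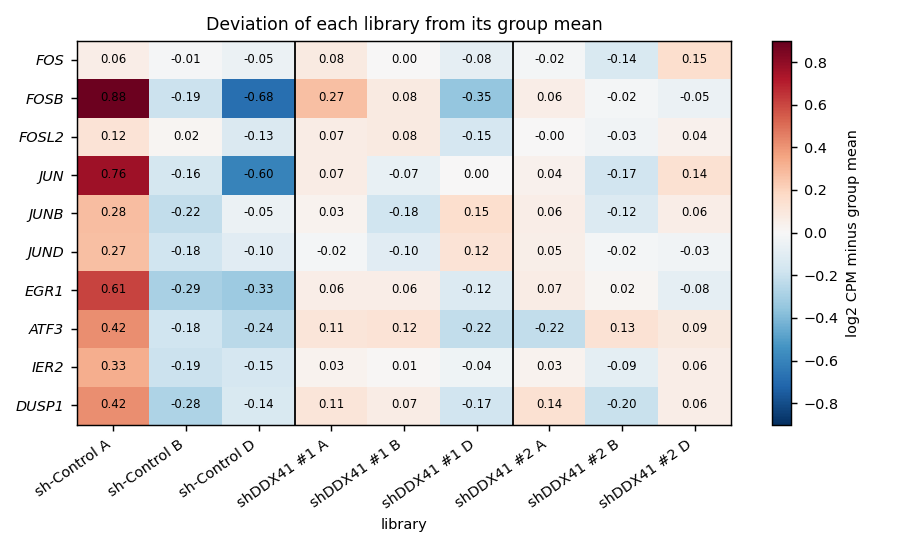
Deviation of each library's log2 CPM from its group mean (colour and printed value) for the 10 members (rows) and 9 libraries (columns). The column of sh-Control A is positive throughout, from 0.06 for FOS to 0.88 for FOSB, and no column of the hairpin groups shows the same depth of colour.

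Other immediate early genes moved with sh-Control A as well. Of 31 measured genes of that kind 27 were highest in sh-Control A among the controls, and so were 15 of 17 AP-1 target genes. The corresponding numbers were 11 of 16 for DUSP and Sprouty genes and 16 of 26 for upstream kinases. For factors that bind AU-rich elements or take part in transcript decay it was 4 of 13. Of the 31 immediate early genes, 20 were highest of their group in shDDX41 #1 A and 16 in shDDX41 #2 A. Of all 12712 genes, 3687 and 3945 were. The AP-1 targets gave 12 and 7 of 17, the kinases 10 and 6 of 26 and the decay factors 1 and 3 of 13. The 31 genes' median deviation (log2) was 0.32 in sh-Control A, 0.14 in shDDX41 #1 A and 0.04 in shDDX41 #2 A. Whether the libraries of letter A share a cause was not tested. By the rule for likeness, the 10 genes whose deviations followed the members' mean most closely were RAC2 (r = 0.991), TICAM1 (0.99), CD97, MLC1, AP5S1, PLEC, CSRNP1, TGFB1, SIPA1 and CNN2 (0.975). PLEC, a cytoskeletal linker, stood at 592 CPM in sh-Control A and at 430 and 406 CPM in B and D. TGFB1, a secreted growth factor, stood at 153 CPM in A and at 108 and 109 CPM in B and D, and CSRNP1, an immediate early nuclear protein, at 23.3, 13.2 and 13.2 CPM. The depth of sh-Control A (18062090 counts) and its TMM factor (0.998) lay within the range of the other libraries. What set this library apart was not tested.

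Without sh-Control A, 9 of the 10 members were called higher under shDDX41 #1, and JUN was the exception (log2 fold change 0.04, edgeR adjusted p = 0.83). FOSB rose by 1.48, DUSP1 by 1.30, FOS by 1.19, EGR1 by 1.11 and ATF3 by 0.73. The added calls were IER2 (0.38), JUNB (0.34), FOSL2 (0.25) and JUND (0.21). In the same fit shDDX41 #2 raised FOS (0.41) and FOSL2 (0.64) and lowered JUN (-0.51). FOSB (0.45) and IER2 (0.06), which had negative estimates with all libraries, were then positive and not called. Between the hairpins all 10 members were called in that fit, with 9 higher under shDDX41 #1 and FOSL2 lower. That difference contains no control library, so leaving out sh-Control A acted mainly on its SE. The library was left out because it was the highest control for every member, a choice made from these same values. Each estimate against sh-Control therefore had to move up, and the added calls are no separate support for a rise. For shDDX41 #1 the SE went from 0.266 to 0.166 for FOSB and from 0.237 to 0.137 for JUN. For FOS it went from 0.0802 to 0.091. The share of all genes called in this fit is not given here, and the shares above belong to the fit of all 9 libraries.

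**Figure D4:**
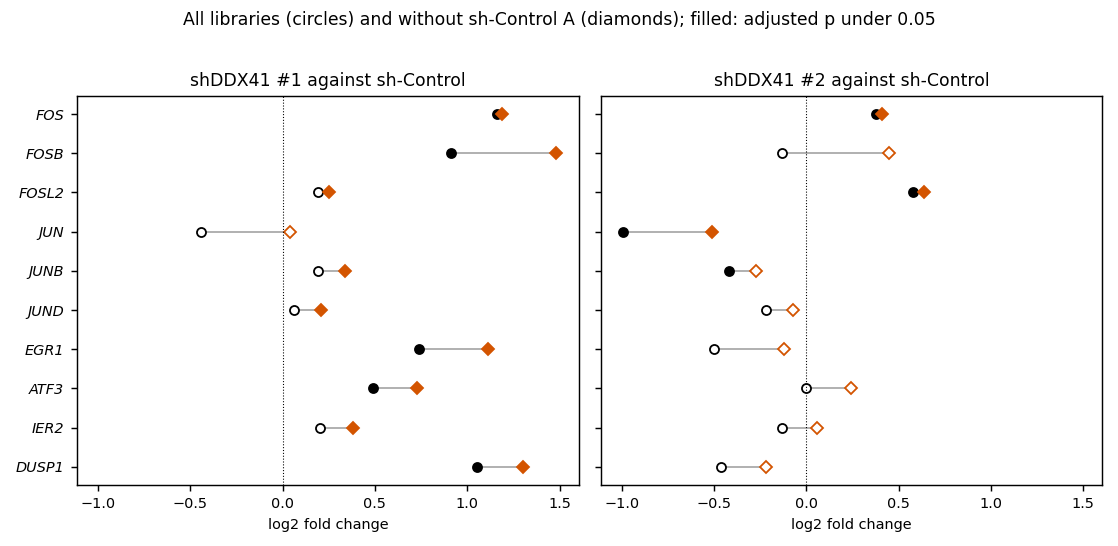
Log2 fold change of each member for each hairpin against sh-Control with all 9 libraries (circles) and without sh-Control A (diamonds), on 1 common axis, filled where the adjusted p is under 0.05. Every diamond lies to the right of its circle, by little for FOS (1.16 to 1.19) and by most for FOSB (0.91 to 1.48) under shDDX41 #1. As sh-Control A was the highest control for all 10 members, the direction of the shift follows from leaving it out.

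A further library stood apart in the hairpin group. shDDX41 #1 D was the lowest of its group for 7 of the 10 members, among them FOSB, EGR1, ATF3 and DUSP1, and the highest for JUNB and JUND. Its median distance from the group mean over all genes was 0.12 on the log2 scale, against 0.0776 and 0.0824 for its partners. Without it FOS (1.21), FOSB, EGR1, ATF3 and DUSP1 were still called against sh-Control, and FOSL2 was called too (0.27).

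Levels over the 9 libraries gave each member a different set of nearest genes. FOS was closest to SETDB1, a histone H3 lysine 9 methyltransferase (r = 0.992), followed by RHOBTB2 (0.991) and FAM117A (0.988). FOSL2 was closest to GNA12 (0.99), to MPO, the myeloperoxidase of neutrophil granules (0.989), and to PREX1 (0.985). MPO rose by 0.59 under shDDX41 #2, where FOSL2 rose by 0.58, and it is 1 of the 12 myeloid markers whose sum was higher in that group. The largest rise among those markers was that of LYZ (0.96), and FCER1G fell (-0.91). FOSB was closest to AKT1S1 (0.985), TICAM1 (0.967) and NR4A2 (0.967), itself an immediate early nuclear receptor. ATF3 was closest to KLF6 (0.971), another immediate early factor, and to CTNS and KDM4B. EGR1 was closest to SLC9A3R2 (0.981), ARRB1 and GRIN2D, and DUSP1 to UBE2O (0.987), KIAA1462 and ZNF629. JUN was closest to MFSD12 (0.959), RRP12 and TRIM28, JUNB to C20orf27 (0.967), SPATA2L and SPATC1L, JUND to SPATA2L (0.961), SH3GL1 and SH2D2A, and IER2 to TICAM1 (0.955), ARID5A and FRAT1. Among the members, EGR1 and DUSP1 were the most alike (r = 0.97), and FOSL2 and JUNB the least (r = -0.63). These correlations hold the group differences as well as the spread within groups, and are descriptions.

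Genes outside the 10 were read from lists that follow the pathway from kinase to target. Over all genes tested, 23.7% were called higher and 24.1% lower under shDDX41 #1, 11.6% higher and 13.4% lower under shDDX41 #2, and 24.6% higher and 24.2% lower between the hairpins, with medians of 0.01, -0.01 and 0.01. The counts below stand beside these shares, and no list was tested against other genes. Counts from fits that left out 1 library have no such share beside them.

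Among other immediate early genes, 12 of 31 rose and 5 fell under shDDX41 #1 (54.8% called, against 47.8% of all genes), with a median log2 fold change of 0.19. TRIB1, a pseudokinase that directs protein degradation in myeloid cells, rose from 70.8, 51.3 and 46.9 CPM in sh-Control to 173, 162 and 133 CPM (1.47, SE 0.131, edgeR adjusted p = 4.4e-07). EGR4, a zinc finger relative of EGR1, was rare at 0.263 to 0.833 CPM in sh-Control and rose to 1.51 to 1.68 CPM (1.77, edgeR adjusted p = 0.0015). In the other direction, TNFAIP3, a brake on NF-kB signalling, fell by 0.77 and the chemokine IL8 fell by 0.99. Both are also known targets of NF-kB.

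Under shDDX41 #2, 2 of these 31 rose and 7 fell (29% called, against 25% of all genes), with a median of -0.05. The 2 that rose were BTG2, an antiproliferative protein (0.47, not called without sh-Control B), and IER5 (0.39). ID1, an inhibitor of bHLH factors, fell from 5.79 to 7.69 CPM in sh-Control to 2.73 to 2.93 CPM (-1.22, edgeR adjusted p = 0.00036), and RHOB, a short-lived small GTPase, fell by 1.03. Between the hairpins 16 of the 31 were higher and 5 lower under shDDX41 #1 (67.7% called, against 48.8% of all genes), with a median of 0.38. Without sh-Control A the counts were 15 higher and 4 lower for shDDX41 #1, and 6 higher and 6 lower for shDDX41 #2.

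Among 10 measured bZIP partners that can join AP-1 dimers, 1 rose and 3 fell under shDDX41 #1, and 1 rose and 2 fell under shDDX41 #2. The shares called were 40.0% and 30.0%, against 47.8% and 25% of all genes. FOSL1 (FRA1), the remaining FOS family gene, stood at 34.0, 30.9 and 23.0 CPM in sh-Control, at 36.9, 34.6 and 32.0 CPM in shDDX41 #1, and at 16.9, 14.2 and 18.3 CPM in shDDX41 #2. It fell under shDDX41 #2 (-0.83, SE 0.132, edgeR adjusted p = 0.00036) and differed between the hairpins by 1.07 (edgeR adjusted p = 1e-05). FOSL1 and FOSL2 therefore moved in opposite directions under shDDX41 #2. JDP2, a repressor that pairs with JUN, fell under shDDX41 #1 (-0.45) and differed between the hairpins by -0.74 (edgeR adjusted p = 1.8e-05). Its rise under shDDX41 #2 (0.29) was called in 3 of the 9 fits that left out 1 library, and not without any of the sh-Control libraries. ATF7 rose (0.54) and BATF3, at 2.40 CPM in sh-Control, fell (-1.07) under shDDX41 #1, and BATF3 also fell under shDDX41 #2 (-1.38).

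The feedback phosphatases and Sprouty proteins, which act on kinase signalling as DUSP1 does, gave 6 rises and 2 falls among 16 under shDDX41 #1, and 1 rise and 5 falls under shDDX41 #2. The medians were -0.04 and -0.11, and between the hairpins 9 were higher and 2 lower with a median of 0.34. The shares called were 50%, 37.5% and 68.8%, against 47.8%, 25% and 48.8% of all genes. DUSP2, a nuclear phosphatase of ERK and p38, rose by 0.88 under shDDX41 #1 (SE 0.118, edgeR adjusted p = 2.5e-05), from a mean of 10.7 to 19.7 CPM. SPRY1, an inhibitor of receptor tyrosine kinase signalling, was at 4.11, 3.21 and 4.00 CPM in sh-Control, at 6.75, 7.06 and 5.34 CPM in shDDX41 #1, and at 1.73, 1.83 and 2.91 CPM in shDDX41 #2, and differed between the hairpins by 1.58 (edgeR adjusted p = 1.9e-05). DUSP22 rose (0.62) and DUSP8 fell (-0.83) under shDDX41 #2. The shDDX41 #1 calls of SPRY4 (0.85), DUSP6 (-0.34) and DUSP14 (-0.22) held in 4 of the 9 fits that left out 1 library, and were lost without sh-Control A or shDDX41 #1 A. Without shDDX41 #1 B the count for that hairpin was 5 rises and no fall. The fall of SPRY1 under shDDX41 #2 (-0.82) was lost without shDDX41 #2 A or B.

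Among 26 upstream kinases 4 rose and 8 fell under shDDX41 #1, 2 rose and 6 fell under shDDX41 #2, and 6 were higher and 8 lower between the hairpins. The shares called, 46.2%, 30.8% and 53.8%, were close to the 47.8%, 25% and 48.8% of all genes. MAP2K2 (MEK2), which activates ERK, fell under shDDX41 #2 from 142, 124 and 128 CPM in sh-Control to 69.5, 69.7 and 72.8 CPM (-0.89, SE 0.0683, edgeR adjusted p = 5.3e-07). It stood at 147, 142 and 154 CPM in shDDX41 #1. MAPKAPK3, a kinase downstream of p38, rose under shDDX41 #1 (0.33) and fell under shDDX41 #2 (-0.79), and the hairpins differed by 1.12 (edgeR adjusted p = 4.3e-08). RPS6KA5 (MSK1), which phosphorylates CREB and histone H3 at immediate early promoters, fell under shDDX41 #1 (-0.90), as did MAPK9 (JNK2), a kinase of JUN (-0.79). RPS6KA1 rose under shDDX41 #1 (0.32), and RPS6KA4 (0.33) and MAPKAPK2 (0.27) rose under shDDX41 #2.

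Of 12 transcription factors that act upstream, 3 rose and 2 fell under shDDX41 #1, 1 rose and 2 fell under shDDX41 #2, and 5 were higher and 3 lower between the hairpins. The shares called were 41.7%, 25.0% and 66.7%, against 47.8%, 25% and 48.8% of all genes. MKL1, a coactivator of SRF, rose under both hairpins (0.51 and 0.47), and MEF2D rose under shDDX41 #1 (0.41). ELK3, a partner of SRF at CArG boxes, stood at 20.3, 18.3 and 19.5 CPM in sh-Control, at 4.52, 5.45 and 4.73 CPM in shDDX41 #1 and at 15.3, 17.8 and 17.6 CPM in shDDX41 #2, a fall of 1.98 for shDDX41 #1 (SE 0.119, edgeR adjusted p = 9.9e-09). ELK1 fell by 0.34 in the same comparison. The falls of ELK4 (-0.30) and SRF (-0.20) under shDDX41 #2 held in 4 and 2 of the 9 fits that left out 1 library, and both were lost without sh-Control B.

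Factors that bind AU-rich elements or take part in transcript decay gave 2 rises and 6 falls among 13 under shDDX41 #1. Of these genes 61.5% were called, against 47.8% of all genes. KHSRP recruits the exosome to AU-rich transcripts. Its level was 736, 674 and 595 CPM in sh-Control and 424, 440 and 379 CPM in shDDX41 #1. That was a log2 fold change of -0.69 (SE 0.0794, edgeR adjusted p = 5.7e-06). In shDDX41 #2 KHSRP stood at 633, 634 and 630 CPM. ZFP36L1 fell by 0.88, whereas its paralog ZFP36L2 (0.36) and the poly(A) ribonuclease PARN (0.22) rose. The other falls were those of DCP2 (-0.62), TIA1 (-0.51), CNOT1 (-0.49) and ELAVL1 (-0.19). Under shDDX41 #2 XRN1 rose (0.39, not called without shDDX41 #2 D) and TIAL1 fell (-0.21, called in 5 of the 9 fits that left out 1 library). Without shDDX41 #2 D neither was called. These are 15.4% of the list, against 25% of all genes. Between the hairpins 2 were higher and 5 lower (53.8%, against 48.8%).

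Of 17 widely described AP-1 target genes, 1 rose and 6 fell under shDDX41 #1, with a median of -0.23, and 4 rose and 5 fell under shDDX41 #2, with a median of -0.10. The shares called were 41.2% and 52.9%, against 47.8% and 25% of all genes. The chemokine CCL4 (2.65 CPM in sh-Control) fell under both hairpins, by 1.57 and 1.60. FTH1, the ferritin heavy chain, rose under shDDX41 #2 (0.47), and its rise of 0.25 under shDDX41 #1 was called in 2 of the 9 fits that left out 1 library. NQO1 (0.40) was called under shDDX41 #2 in 5 and CCL3 (-1.0) in 6 of those 9 fits. Leaving out 1 library brought the count under shDDX41 #2 down to as few as 4, without shDDX41 #2 D. Without sh-Control A it was 6 rises and 3 falls, with a median of 0.19. Between the hairpins 2 were higher and 7 lower (52.9% called, against 48.8% of all genes).

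The integrated stress response is the pathway that leads from phosphorylated eIF2 to ATF4, DDIT3 and ATF3. Under shDDX41 #2 none of its 12 listed genes rose and 9 fell (75.0% called, against 25% of all genes), with a median of -0.36, and under shDDX41 #1 2 rose and 5 fell (58.3%, against 47.8%), with a median of 0.03. DDIT3 (CHOP) stood at 24.0, 21 and 21.5 CPM in sh-Control, at 27.5, 23.2 and 30.8 CPM in shDDX41 #1 and at 13.5, 11.4 and 9.39 CPM in shDDX41 #2. It fell under shDDX41 #2 by 0.96 (SE 0.132, edgeR adjusted p = 0.00011), and the hairpins differed by 1.25. DDIT4 fell by 0.84 under shDDX41 #2. PPP1R15A, the regulatory subunit that reverses eIF2 phosphorylation and is also counted among the immediate early genes, rose under shDDX41 #1 (0.82, SE 0.111, edgeR adjusted p = 2.7e-05), whereas the ATF4 targets ASNS (-0.62) and TRIB3 (-0.57) fell. VLDLR (0.29) was not called without sh-Control A or shDDX41 #1 A. Between the hairpins 9 of the 12 were higher and 1 lower under shDDX41 #1 (83.3% called, against 48.8% of all genes).

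**Figure D5:**
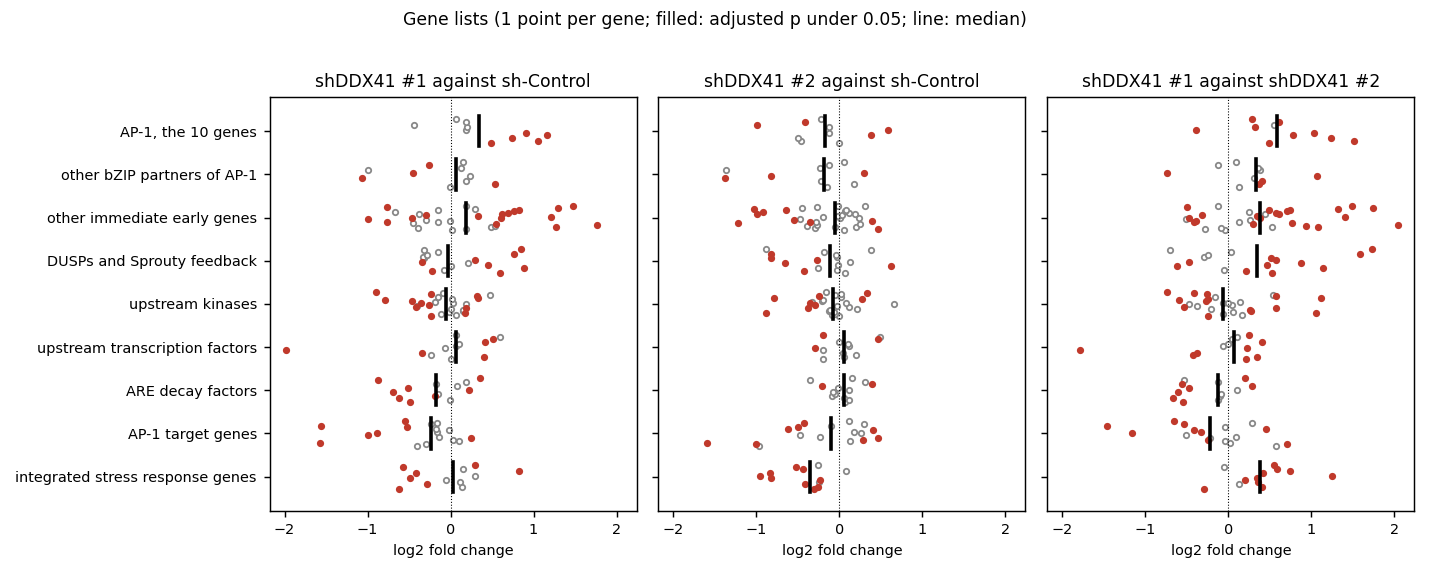
Log2 fold change of each measured gene (1 point per gene, filled where the adjusted p is under 0.05) in the 10 members and 8 further lists for the 3 comparisons, with a line at each list's median. In the comparison between the hairpins the medians of the 10 members (0.58), the other immediate early genes (0.38) and the integrated stress response genes (0.38) lie right of 0, and that of the AP-1 target genes (-0.22) lies left of it.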

How the data were processed

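RNA was isolated from sorted MOLM13 cells with a column kit and sequenced as poly(A) libraries. The labels name a stranded kit and the methods of the study an unstranded one of the same family, and the strand setting of the counting is not given in the sources used here. The submitters' processing notes list FastQC 0.11.7, HISAT2 2.0.5 and featureCounts 1.5.2, and the builds hg38 and mm10. The authors deposited raw counts of reads per gene as a single table, whose 9 library columns were all matched to a label (0 unmapped). Of 30017 genes, 10641 had no count.

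Counts were analysed with edgeR 4.0.16 in R 4.3.3. Genes were kept by filterByExpr (minimum count 10), totals were rescaled by TMM, and the quasi-likelihood fit used all 9 libraries with the group as its only term. The scripts were tested on simulated data. Errors of CPM levels are SDs over 3 libraries, correlations used log2 CPM with a prior count of 2, and intervals are 95%. For 3 against 3 libraries an exact permutation test cannot go below p = 0.1. The biological coefficient of variation was 0.0768. Gene positions and exon lengths came from GENCODE v29, and promoter windows from RefSeq.

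The members and the lists were chosen with earlier results of these data known. Named were all 10 members and DDX41, and in each list the 2 called genes with the largest rise and the 2 with the largest fall for each hairpin against sh-Control. Not every gene that this rule selects is reported here. For likeness, the 3 nearest genes of each member were named, and the 10 nearest to the members' mean deviation. Some lists share genes (PPP1R15A, ZFP36, IL8), and older and newer symbols of a gene were listed side by side where the table holds 1 of them. Alternatives used DESeq2 1.42.0 and limma 3.58.1.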

Additional observations from a re-analysis of the deposited data

Results flagged for a closer look

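For 6 members the hairpins had estimates of opposite sign against sh-Control, and the difference between the hairpins was itself called (edgeR, adjusted p under 0.05). The log2 differences, shDDX41 #1 minus shDDX41 #2, were 1.51 for DUSP1 (1.05 and -0.46 against sh-Control), 1.24 for EGR1 (0.74 and -0.50), 1.03 for FOSB (0.91 and -0.13), 0.61 for JUNB (0.19 and -0.42), 0.32 for IER2 (0.20 and -0.13) and 0.28 for JUND (0.06 and -0.22). All 3 shDDX41 #1 libraries lay above all 3 shDDX41 #2 libraries for each of the 6. Among the negative estimates JUNB alone was called against sh-Control. The signs rest on shared controls, and without sh-Control A the shDDX41 #2 estimates of FOSB (0.45) and IER2 (0.06) were positive, while without sh-Control B the shDDX41 #1 estimate of JUND was -0.03. The difference between the hairpins remained called for all 6 without sh-Control A. That fit is no check of it, because the difference contains no control library. For FOSB the estimate stayed at 1.03 while the SE went from 0.267 to 0.142. Over the 9 fits that left out 1 library, the call held in 4 for JUND and in 6 for IER2. It held in all 9 for DUSP1, EGR1, FOSB and JUNB, although the call of FOSB was lost with a robust prior in edgeR.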

How the results depend on the processing

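FOS against sh-Control, FOSL2 and JUN under shDDX41 #2, and EGR1 and DUSP1 under shDDX41 #1 were called in each fit that left out 1 library. So were FOS, FOSB, FOSL2, JUNB, EGR1 and DUSP1 between the hairpins. Under the remaining alternatives, 101 to 105 of 110 values per comparison kept direction and side of the threshold. The estimate of ATF3 under shDDX41 #2 turned to -0.018 with library size only, and that of FOSB under shDDX41 #2 to 0.028 with limma voom and 0.11 with sample quality weights. None of these was called. At an adjusted p under 0.01, 3 members (FOS, EGR1 and DUSP1) were called for shDDX41 #1. For shDDX41 #2 the members called at that threshold were FOS, FOSL2 and JUN, beside 1670 of the 12712 genes tested. The share of all genes called for shDDX41 #1 at that threshold is not given here. FOSB under shDDX41 #1 was not called by the DESeq2 Wald test (adjusted p = 0.0661).

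Leaving out 1 library moved JUN under shDDX41 #1 from -0.701 to 0.041, JUND under shDDX41 #1 from -0.027 to 0.207, FOSB under shDDX41 #2 from -0.417 to 0.445, IER2 under shDDX41 #2 from -0.217 to 0.057 and ATF3 under shDDX41 #2 from -0.126 to 0.245. The count of members called under shDDX41 #1 ran from 3 to 9, that under shDDX41 #2 from 3 to 5 and that between the hairpins from 6 to 10. The matching shares of all genes are not given fit by fit, so these counts cannot be set against them. All genes called under shDDX41 #2 ran from 2054 (without shDDX41 #2 B) to 4248 (without shDDX41 #1 D). A group left with 2 libraries was assumed to vary like the others.

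With the replicate letter as a block (replicate block), 7, 5 and 10 members were called in the 3 comparisons. The additions were FOSL2 (0.191) and JUNB (0.193) under shDDX41 #1, EGR1 (-0.472) under shDDX41 #2 and JUN (0.553) between the hairpins. The share of all genes called with the block is not given here. The letters paired the libraries of some groups only. Between sh-Control and shDDX41 #1, deviations of the same letter correlated at 0.0725 (A), 0.158 (B) and 0.243 (D). Unlike letters of these groups gave -0.184 to 0.0664. Same-letter correlations that involved shDDX41 #2 ran from -0.0574 to 0.0225. Of 9 correlations of deviations between libraries of the same letter 2 were over 0.1 (-0.0574 to 0.243), and a library was best matched by its own letter in 9 of 18 cases.

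DUSP1, at 60 to 178 counts, has the largest counting error of the members. Labels give no other batch, so a batch that coincides with a group cannot be told apart from it.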
